A study of Mus musculus with 6 samples.

Results

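The interferon response genes are transcripts that cells raise after type I or type II interferon. They were taken from a list of 41 symbols that covers sensors, transcription factors, antiviral effectors, regulators and interferon-inducible GTPases. Of the 41, 39 were measured, among 18193 genes in all. The only listed probe set of Isg15 also names a second gene, so Isg15 is not reported, and Ifi44 was not analysed here. The genes were chosen by name and not by their values, and the list was drawn up with earlier results of these data known, including that the mice differ in direction.

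The samples came from mice of a mixed C57BL/6;129Sv/J background whose lung tumours model small cell lung cancer. Tumours were triple mutant for Rb, p53 and p130 in both fractions, were started by adenoviral Cre and were taken after 6 to 7 months. After staining for CD24, CD44 and EpCAM, sorting gave a fraction of tumour-propagating cells (TPCs) and a fraction without them (non-TPCs). The sources used here give neither the gates nor the promoter that drove Cre. There were 3 mice, 1127, 920 and 0107, and 2 arrays from each, 1 for either fraction. The 3 mice are separate animals, and p-values measure the spread between their arrays. Levels are probe set signals on a log2 scale, and every difference is TPC minus non-TPC on that scale, so a difference of 1 is a doubling of signal.

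Interferons bind receptors on the cell surface and switch on JAK kinases and STAT proteins. Type I interferon drives a complex of STAT and IRF9 that binds the interferon-stimulated response element (ISRE) in promoters, and type II interferon drives STAT dimers that bind the gamma-activated sequence (GAS). The induced proteins sense foreign RNA, block viral entry and translation, or attack the vacuoles of intracellular microbes. Both tumour cells and leukocytes can express them.

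The ISRE letters stood in the promoters of many of the genes measured. RefSeq promoter windows of build GRCm38.p6, from 250 bases before to 50 after a gene's start, were found for 29 of the 39 genes, 37 windows in all. The ISRE core was searched on both strands as TTTC, any 2 bases and TTTC, and at least 1 window held it in 17 of 29 genes (58.6%), against 3.99% of the 27025 genes in the table. The GAS core, TTCNNNGAA, which reads the same on both strands, was held by 10 of 29 genes (34.5%) against 9.55%. A match is a description of letters and not evidence of binding. The 250 bases before the start are shown for 5 genes, with ISRE cores in capitals, because their signals followed 3 different patterns. Gbp2 and Ifit3 were lower in TPCs of all mice, and Ifit1 and Oas1a were lower in TPCs of 2 mice and higher in the third. Rsad2 was higher in TPCs of all mice on its brightest probe set, while a second bright probe set had the signs of Ifit1 and Oas1a.
Gbp2 (chr3:142620413-142620662, + strand): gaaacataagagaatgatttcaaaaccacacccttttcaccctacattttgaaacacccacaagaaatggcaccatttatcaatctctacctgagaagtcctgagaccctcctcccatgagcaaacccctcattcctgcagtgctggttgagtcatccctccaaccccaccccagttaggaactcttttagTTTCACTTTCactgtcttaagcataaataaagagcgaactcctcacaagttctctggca
Ifit3 (chr19:34583279-34583528, + strand): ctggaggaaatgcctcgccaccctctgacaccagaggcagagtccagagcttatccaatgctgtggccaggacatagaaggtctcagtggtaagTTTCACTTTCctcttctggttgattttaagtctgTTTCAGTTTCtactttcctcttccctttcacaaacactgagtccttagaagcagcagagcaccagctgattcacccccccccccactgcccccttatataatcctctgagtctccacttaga
Ifit1 (chr19:34640639-34640888, + strand): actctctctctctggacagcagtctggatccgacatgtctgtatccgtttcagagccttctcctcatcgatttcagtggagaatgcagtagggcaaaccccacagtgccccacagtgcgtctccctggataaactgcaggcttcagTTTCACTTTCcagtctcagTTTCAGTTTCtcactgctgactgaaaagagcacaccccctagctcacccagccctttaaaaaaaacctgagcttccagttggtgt
Oas1a (chr5:120907526-120907775, - strand): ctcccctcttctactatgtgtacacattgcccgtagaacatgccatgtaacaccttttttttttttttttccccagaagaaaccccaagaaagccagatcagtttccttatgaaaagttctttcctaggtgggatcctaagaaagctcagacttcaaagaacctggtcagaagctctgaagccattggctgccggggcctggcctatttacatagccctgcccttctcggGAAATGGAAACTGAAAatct
Rsad2 (chr12:26456453-26456702, - strand): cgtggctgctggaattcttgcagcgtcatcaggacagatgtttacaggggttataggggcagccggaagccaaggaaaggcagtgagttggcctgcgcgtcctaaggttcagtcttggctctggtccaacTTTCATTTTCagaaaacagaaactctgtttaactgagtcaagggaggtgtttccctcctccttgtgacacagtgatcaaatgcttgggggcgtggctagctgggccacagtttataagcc
The core stands in all 5 windows, which were chosen to show it, while 12 of the 29 genes with a window lack it. Ifit3 and Ifit1 lie in one gene cluster on chromosome 19, and each holds 2 cores, at -156 and -122 and at -104 and -85 from the start. The cores of Oas1a at -20 and -14 overlap. Among genes with a window, the core was held by 5 of 6 that were lower in TPCs of all mice, by 6 of 15 that were lower in mice 1127 and 920 and higher in mouse 0107, and by 6 of 8 with other patterns.

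The 6 arrays differed in markers of other cell types, and the non-TPC array of mouse 0107 stood apart in some marker lists. Summed signals of 6 neutrophil markers were 8.32 to 9.10 in TPCs and 10.84 to 11.30 in non-TPCs. Those of 9 pan-leukocyte markers were 10.25 to 10.80 and 10.81 to 11.65, and Ptprc, which encodes CD45, was between 5.94 and 7.44 in TPCs and between 7.91 and 9.16 in non-TPCs. Fibroblast markers summed to 10.59 to 11.68 in TPCs and 11.80 to 14.47 in non-TPCs, the highest in mouse 1127. Endothelial markers were highest in the non-TPC array of mouse 0107, at 10.35 against at most 9.35 elsewhere. The summed levels of T and NK cell, B cell and plasmacytoid or other dendritic cell markers overlapped between fractions. The dendritic cell list was highest in the non-TPCs of mouse 0107, at 11.84, and most of that sum was Tcf4 alone, at 11.64. Alveolar and airway markers summed to 13.43 to 14.31 in TPCs and 14.16 to 15.57 in non-TPCs. All 8 were lower in TPCs of every mouse. Of the markers listed, Sftpa1 and Sftpc, which encode surfactant proteins, and the neutrophil gene S100a9 passed the limma test (0.0605% of all genes). With the mouse as a replicate block, Sftpa1 and the leukocyte gene Lcp1 passed (0.0715%). All of these were lower in TPCs. The club cell gene Scgb1a1 was bright in every array, at 12.67 to 14.36. Of 8 neuroendocrine and tumour cell markers, 7 had a mean above the median level of all genes, with Insm1 between 10.61 and 12.36. Nkx2-1 was dim, at 5.42 to 5.74, and Syp was at 6.72 and 6.76 in mouse 0107. Epcam was at 9.98 in the non-TPCs of mouse 0107 and at 11.57 to 13.35 elsewhere. Less RNA per cell and fewer cells of a type cannot be told apart in such bulk samples.

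Interferon response genes were lower in TPCs of mice 1127 and 920 and higher in TPCs of mouse 0107. In mouse 1127, 32 of 39 were lower in TPCs (82.1%, against 40.7% of all genes), with a median difference of -0.51. In mouse 920, 31 of 39 were lower (79.5%, against 42.1%), with a median of -0.64. In mouse 0107, 11 of 39 were lower (28.2%, against 53.6%) and 28 were higher, with a median of 0.36, or 0.70 over the 27 genes above the median level of all genes. The medians over all genes were 0.07, 0.05 and -0.03 in the same order. Centring each array on its median shifted the all-gene median of mouse 1127 to 0.21 and left the median of the interferon genes there at -0.38. Each mouse has 1 array per fraction, so the difference between mice in direction was not tested.

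**Figure D1:**
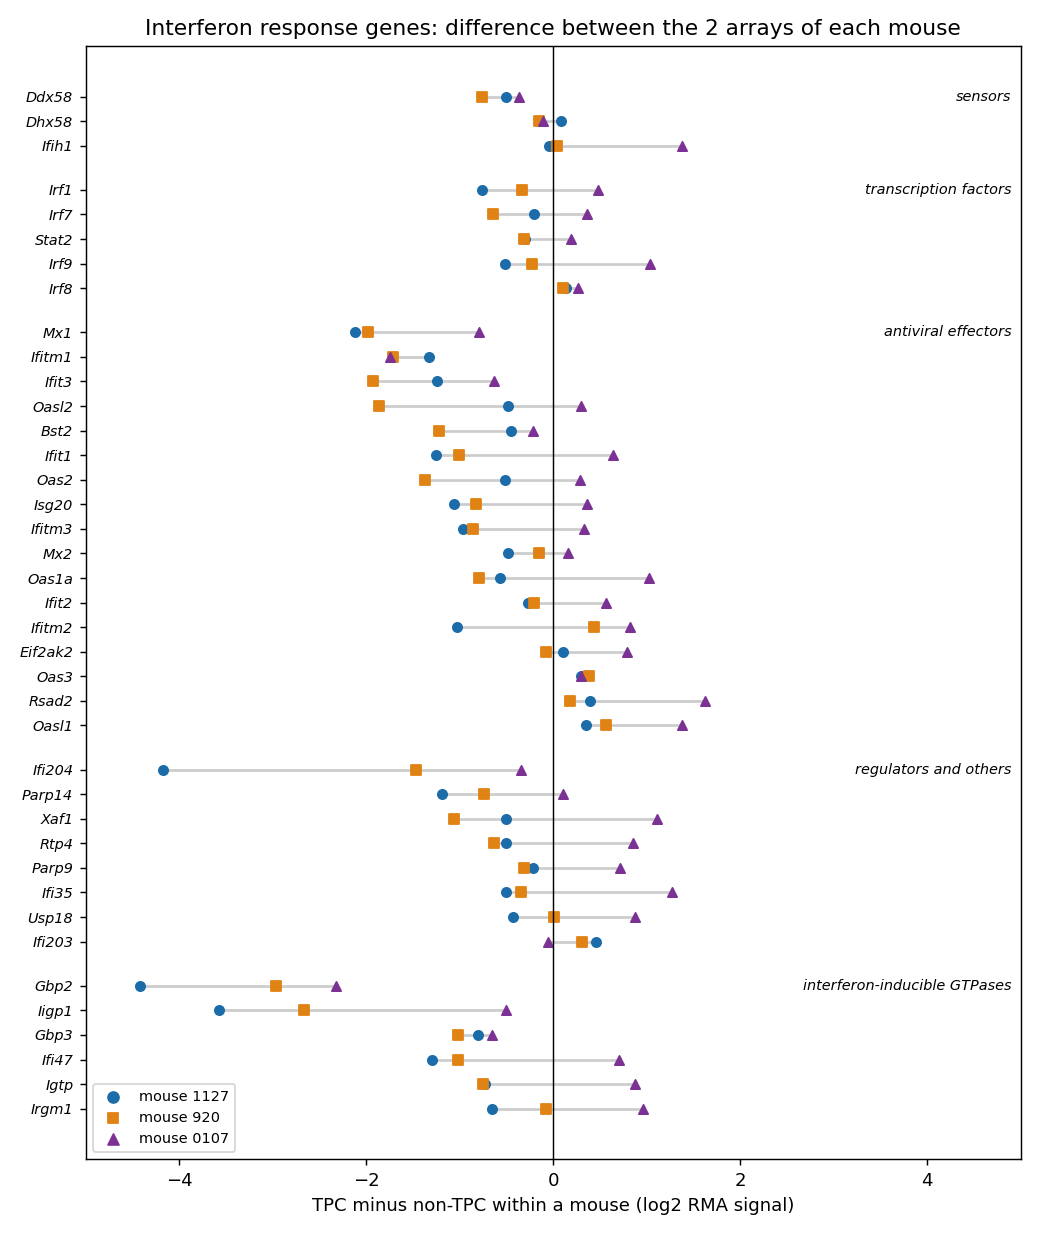
Difference between the TPC and the non-TPC array of each mouse (x axis, log2 RMA signal) for the 39 interferon response genes, grouped by role and ordered by mean difference within a role. Circles, squares and triangles are mice 1127, 920 and 0107, and grey bars join the lowest and highest mouse. The triangles of 28 genes lie right of 0, while 32 circles and 31 squares lie left of it.

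Differences of at least 0.5 showed the same split. In mouse 1127, 23 genes were lower by that much (10.7% of all genes were) and 0 were higher (6.4%). In mouse 920, 21 were lower (7.59%) and 1, Oasl1, was higher (4.82%). In mouse 0107, 6 were lower (13.0%) and 17 were higher (12.3%). The pattern of lower in mice 1127 and 920 and higher in mouse 0107 was held by 20 of 39 genes (51.3%), against 10.1% of all genes.

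The median level of the 39 genes differed more between the non-TPC arrays than between the TPC arrays. The median signal of the 39 genes was 8.14, 8.23 and 8.21 in the TPCs of mice 1127, 920 and 0107. It was 8.87, 8.96 and 7.72 in their non-TPCs. By this pooled median the TPC arrays lay within 0.1 of each other, and the non-TPC array of mouse 0107 lay below all of them. By role, that array's median was below all TPC medians for transcription factors, regulators and GTPases, but not for sensors and antiviral effectors. The 17 effectors had medians of 8.19, 7.91 and 7.39 in TPCs and 8.93, 8.96 and 8.01 in non-TPCs, in the same order of mice. Over all genes the medians were 6.89, 6.83 and 6.87 in TPCs and 7.02, 6.88 and 6.87 in non-TPCs. For 33 of the 39 genes (84.6%) the range over the 3 TPC arrays was smaller than that over the 3 non-TPC arrays, against 67.2% of all genes. The median range was 0.53 in TPCs and 1.45 in non-TPCs for the interferon genes, and 0.32 and 0.46 for all genes.

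**Figure D2:**
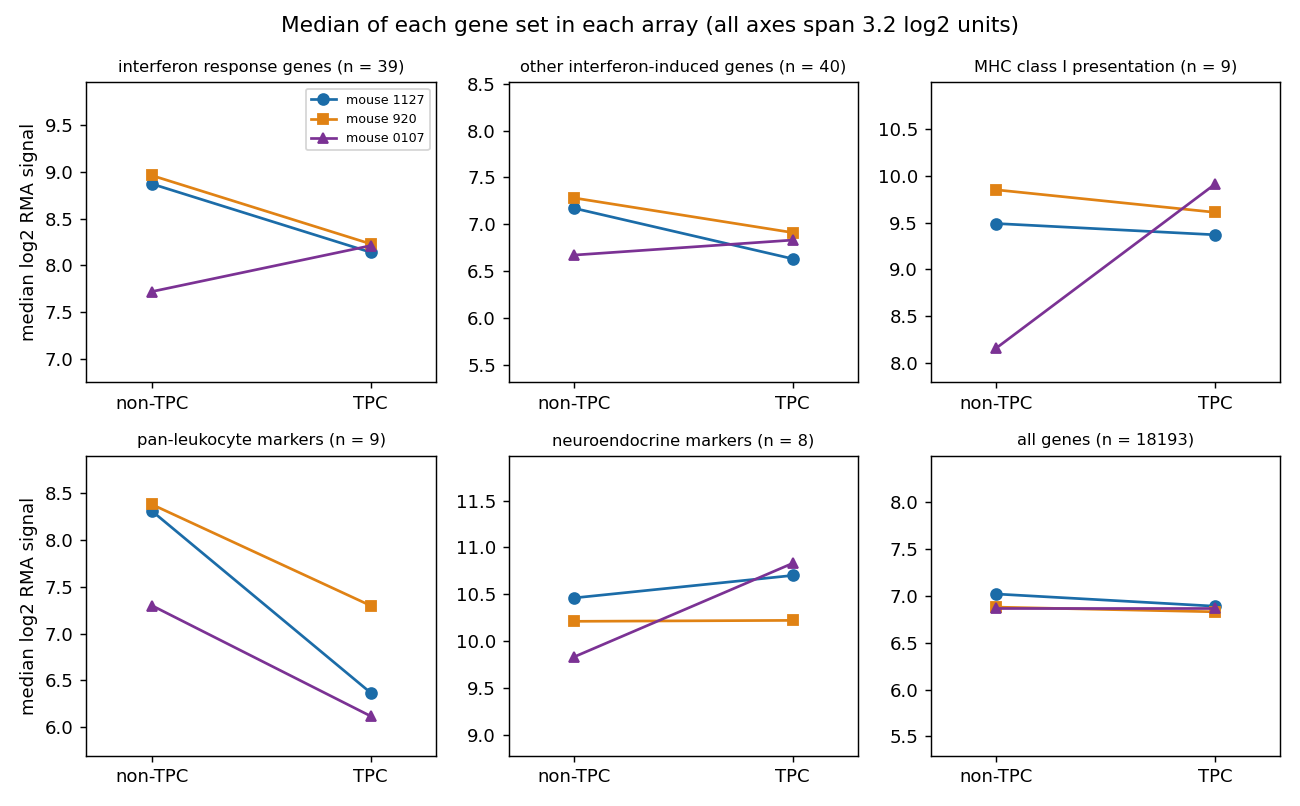
Median log2 RMA signal of 6 gene sets (y axis) in the non-TPC and TPC array of each mouse (x axis), with lines joining the arrays of a mouse and all axes spanning the same range. The interferon response genes, at 8.14 to 8.23 in the 3 TPC arrays, and MHC class I genes are lowest in the non-TPCs of mouse 0107, while pan-leukocyte markers are lower in TPCs of every mouse.

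Gene by gene, the non-TPC array of mouse 0107 held the lowest of the 6 values for 23 of 39 genes (59.0%, against 20.9% of all genes) and the highest for 0 (28.2% of all genes). The non-TPC arrays of mice 1127 and 920 held the highest value for 15 and 16 genes (38.5% and 41.0%, against 14.2% and 9.86%). The TPC arrays of mice 1127, 920 and 0107 were lowest for 6, 1 and 7 genes.

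**Figure D3:**
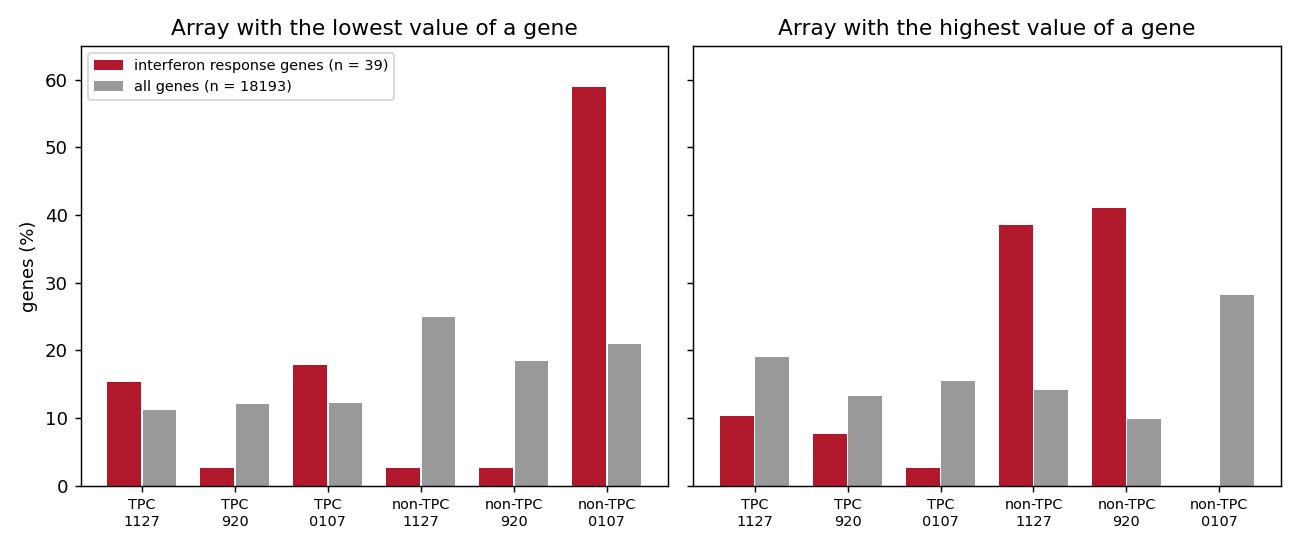
Share of genes (y axis, percent) whose lowest (left) or highest (right) value fell in each of the 6 arrays (x axis), for the 39 interferon response genes in red and all 18193 genes in grey. The red bar for lowest in the non-TPCs of mouse 0107 reaches 59.0%, and that array has no red bar among the highest.

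Across all 3 mice no interferon response gene passed the test. With limma and the fraction as the only term, 0 of 39 had an adjusted p under 0.05 (0.0605% of all genes did, all lower in TPCs). At an unadjusted p under 0.05, 4 were lower (4.35% of all genes) and 0 higher (2.12%). With the mouse as a replicate block 0 passed either (0.0715%), while 9 were lower (6.23%) and 2 higher (3.62%) at an unadjusted p under 0.05. With the mouse as a random block 1 passed, Gbp2 (0.214%), and 7 were lower (6.02%) and 0 higher (3.85%) at an unadjusted p under 0.05. The median difference was -0.16, against 0.04 for all genes. Without the non-TPC array of mouse 0107, 3 passed, Gbp2, Iigp1 and Mx1, all lower in TPCs (0.462% of all genes). With the replicate block, 11 passed without mouse 0107 (2.9% of all genes), all lower in TPCs. In the same fit 0 passed without mouse 1127 (0% of all genes) and 0 without mouse 920 (0.055%). These blocked fits with 1 mouse fewer were chosen after the data were seen. Of the 39 genes, 28 were higher in TPCs of mouse 0107, so leaving it out favours calls of lower in TPCs. Among the 11 that passed, Ifi47, Ifit1, Ifitm3, Isg20 and Parp14 were higher in TPCs of that mouse. The others, Gbp2, Gbp3, Ifit3, Ifitm1, Iigp1 and Mx1, were lower there too.

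By direction, 9 of the 39 were lower in TPCs of all 3 mice (13.8% of all genes), and all 9 of these had a mean difference of at least 0.5 in size (5.77% of all genes). Another 4 were higher in all 3 (19.7%) and 26 were mixed. With the mean of all probe sets of a gene, 9 were lower and 2 were higher in all 3. Irf8 then changed sign in mouse 1127 and Rsad2 in mouse 920. The TPC arrays all lay below the non-TPC arrays for 5 genes, Ddx58, Mx1, Ifi204, Gbp2 and Iigp1 (5.91% of all genes), and all above for 0 (6.71%).

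The GTPases, some of which coat and rupture the vacuoles of intracellular pathogens, had the largest median differences of the 5 roles in mice 1127 and 920. Their medians were -1.05 and -1.02 there and 0.09 in mouse 0107. Gbp2, a guanylate-binding protein, was at 4.42, 4.93 and 5.07 in TPCs of mice 1127, 920 and 0107 and at 8.85, 7.90 and 7.39 in their non-TPCs. The fractions did not overlap, and the TPC signals lay near the first quartile of all probe sets, which was 4.52 to 4.65, so no fold is given. Gbp2 differed by -3.24 (SE 0.38, limma adjusted p = 0.0911), and by -4.42, -2.97 and -2.32 in the 3 mice. With all arrays kept, its adjusted p ranged from 0.0319, with centred arrays, to 0.12. It was 0.0398 with the random block, 0.0479 with an intensity trend and 0.0983 with the replicate block. Leaving out the non-TPC array of mouse 0107 gave 0.029. Its probe set is of a kind that can bind related transcripts, and a second Gbp2 probe set differed by -2.72. Iigp1, an immunity-related GTPase, was at 6.27, 6.52 and 7.21 in TPCs and 9.85, 9.19 and 7.72 in non-TPCs. It differed by -3.58 and -2.67 in mice 1127 and 920 but by -0.51 in mouse 0107, and its mean difference of -2.26 (SE 0.55) did not pass (limma adjusted p = 0.436). It passed when the non-TPC array of mouse 0107 was left out (adjusted p = 0.0418). Its second probe set differed by -1.84.

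Gbp3, which RefSeq places beside Gbp2 with 1 protein-coding gene between them, was at 8.04, 7.59 and 6.49 in TPCs and 8.84, 8.61 and 7.14 in non-TPCs. The fractions overlapped because mouse 0107 was low in both, and the differences were alike in size, at -0.80, -1.02 and -0.65. The other 3 GTPases had the opposite sign in mouse 0107. Ifi47 was at 8.42, 8.76 and 8.99 in TPCs and 9.72, 9.78 and 8.29 in non-TPCs. Igtp was at 8.67, 8.64 and 9.40 in TPCs and 9.40, 9.38 and 8.52 in non-TPCs. Irgm1, an autophagy-linked GTPase, was at 8.14, 8.60 and 8.21 in TPCs and 8.80, 8.68 and 7.25 in non-TPCs. In each of these 3 the non-TPC array of mouse 0107 was the lowest of the 6.

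Antiviral effectors comprised genes lower in TPCs of every mouse, genes that split by mouse and a few that were higher. Mx1, a dynamin-like GTPase that traps viral nucleocapsids, was at 6.23, 6.13 and 5.78 in TPCs and 8.35, 8.11 and 6.57 in non-TPCs. The fractions did not overlap, and Mx1 differed by -1.63 (SE 0.46, limma adjusted p = 0.557), a 3.09-fold difference. Without the non-TPC array of mouse 0107 its difference was -2.18 (adjusted p = 0.0269). Bst2, or tetherin, which holds budding virus at the membrane and also marks plasmacytoid dendritic cells, was at 6.64, 6.34 and 6.11 in TPCs and 7.09, 7.56 and 6.33 in non-TPCs, with overlap between the fractions.

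The Ifit genes, whose products bind viral RNA ends, lie in a cluster on chromosome 19 but had different patterns. Ifit3 was at 7.69, 7.91 and 6.90 in TPCs and 8.93, 9.84 and 7.53 in non-TPCs, a difference of -1.24, -1.93 and -0.63 in the 3 mice. Ifit1 was at 9.05, 8.82 and 8.97 in TPCs and 10.30, 9.83 and 8.32 in non-TPCs, so it was lower by 1.25 and 1.01 in TPCs of mice 1127 and 920 and higher by 0.64 in mouse 0107. Ifit2, next to Ifit3, was at 8.77, 9.13 and 9.07 in TPCs and 9.04, 9.34 and 8.50 in non-TPCs. Its differences, -0.27, -0.21 and 0.56, had the signs of Ifit1. Over the 3 mice Ifit3 differed by -1.27 (SE 0.58, adjusted p = 0.81), and its SE was 0.27 with the replicate block (adjusted p = 0.244).

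The Ifitm genes encode small membrane proteins that hinder virus entry and are neighbours on chromosome 7. Ifitm1 was at 9.62, 7.25 and 6.76 in TPCs and 10.95, 8.96 and 8.51 in non-TPCs. Its level differed more between mice than between fractions, and its difference was nearly the same in each mouse, at -1.33, -1.71 and -1.75. The SE of the mean difference, -1.60, was therefore 0.91 without the mouse in the model (limma adjusted p = 0.872) and 0.15 with the replicate block (0.0709), neither past the threshold. With the replicate block and without mouse 0107, a fit chosen after the data were seen, it passed (0.00734). Ifitm3 was at 11.72, 11.09 and 10.82 in TPCs and 12.69, 11.95 and 10.49 in non-TPCs. Ifitm2 was at 9.55, 9.22 and 8.84 in TPCs and 10.59, 8.78 and 8.01 in non-TPCs, and alone among the 3 it was higher in TPCs of mouse 920, by 0.44. These paralogs are similar in sequence, and how far their probe sets bind each other's transcripts was not tested.

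The oligoadenylate synthetase genes, whose enzymes activate an RNase against viral RNA, showed 2 patterns. Oas1a was at 9.48, 9.54 and 9.20 in TPCs and 10.05, 10.32 and 8.18 in non-TPCs. Oas2 was at 7.99, 7.18 and 7.39 in TPCs and 8.51, 8.55 and 7.10 in non-TPCs. Both were lower in TPCs of mice 1127 and 920 and higher in mouse 0107. The related Oasl2 was at 5.84, 4.48 and 4.99 in TPCs and 6.33, 6.34 and 4.70 in non-TPCs, with the same signs. Oasl1, its direct neighbour on chromosome 5 and a repressor of Irf7 translation, had another pattern. It was at 7.44, 7.21 and 6.64 in TPCs and 7.09, 6.64 and 5.26 in non-TPCs. In all 3 mice the TPC value was the higher one, by 0.35, 0.57 and 1.38 (mean difference 0.77, SE 0.48, adjusted p = 0.877).

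Rsad2, or viperin, which makes a chain-terminating nucleotide, was at 11.02, 10.91 and 10.38 in TPCs and 10.63, 10.74 and 8.75 in non-TPCs. It was higher in TPCs of each mouse, by 0.39, 0.18 and 1.62, with overlap between the fractions (difference 0.73, SE 0.54, adjusted p = 0.887). A second bright Rsad2 probe set was lower in TPCs of mice 1127 and 920, by 0.12 and 0.19, and higher in mouse 0107 by 1.78. The sign of Rsad2 in mice 1127 and 920 thus depends on the probe set.

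**Figure D4:**
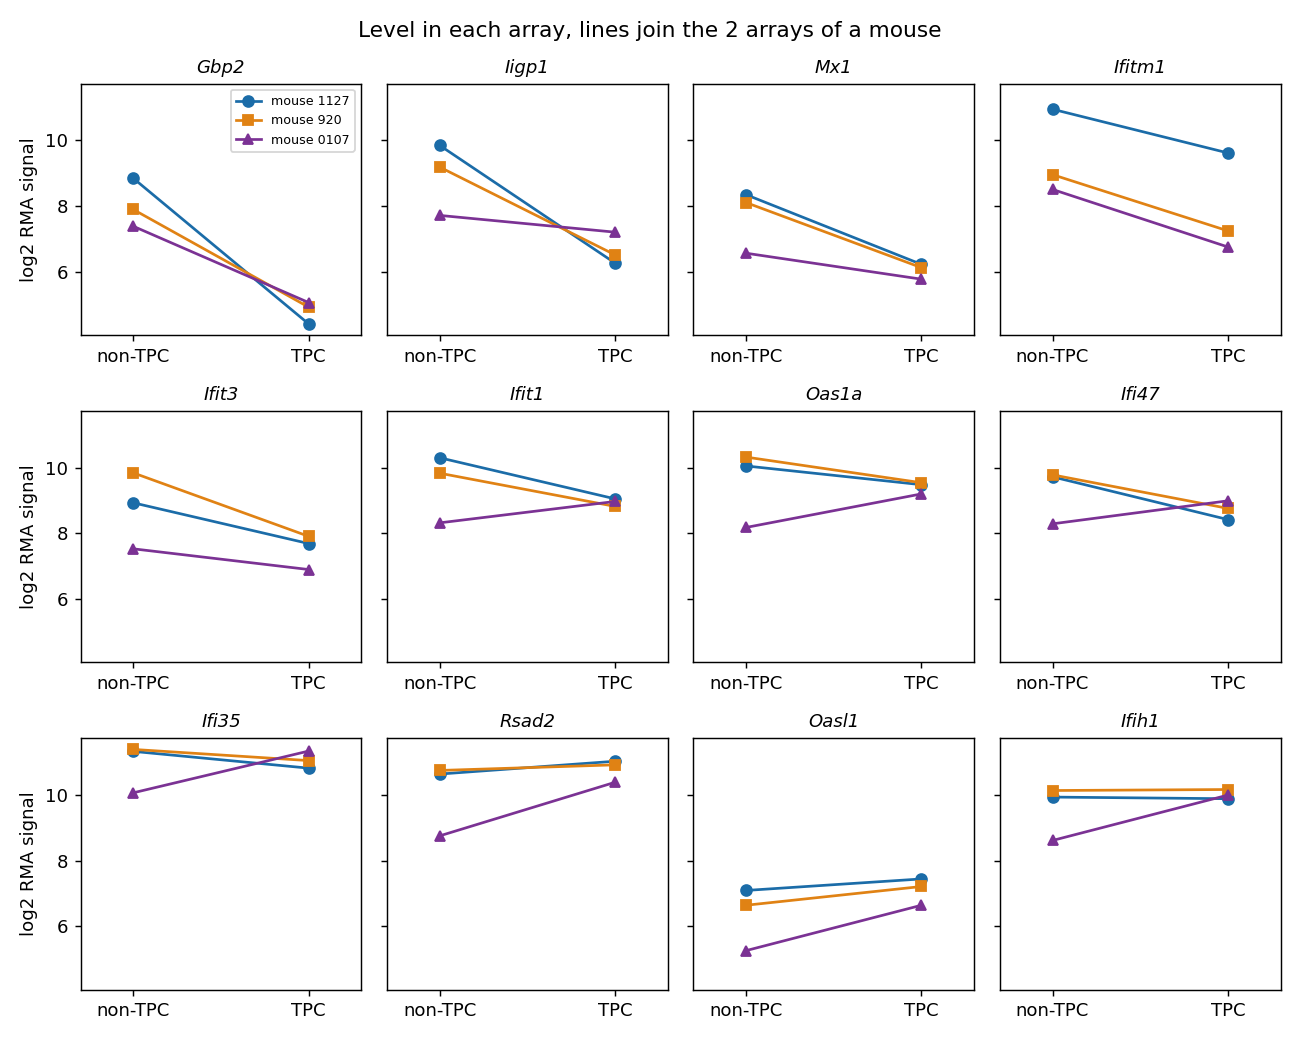
Level of 12 interferon response genes (y axis, log2 RMA signal) in the non-TPC and TPC array of each mouse (x axis), with lines joining the arrays of a mouse. Gbp2, Iigp1, Mx1, Ifitm1 and Ifit3 slope down in all 3 mice, while Ifit1, Oas1a, Ifi47 and Ifi35 slope down in mice 1127 and 920 and up in mouse 0107, whose non-TPC value lies below that of the other mice in every panel.

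Among the remaining effectors, Oas3 was higher in TPCs of all mice by 0.30 to 0.38 on a dim probe set. Isg20, an exonuclease, differed by -1.06, -0.83 and 0.36 and Mx2 by -0.48, -0.15 and 0.16. Both, like Ifitm3 above, were lower in TPCs of mice 1127 and 920 and higher in mouse 0107. Eif2ak2, the kinase PKR that halts translation, differed by 0.10, -0.08 and 0.79.

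The sensors of viral RNA differed from one another. Ifih1, or MDA5, was at 9.88, 10.16 and 9.99 in TPCs and 9.93, 10.13 and 8.61 in non-TPCs. Thus 5 of its 6 values lay within 0.3 of each other, and the non-TPC array of mouse 0107 was lower. Ddx58, or RIG-I, was at 7.07, 6.98 and 6.95 in TPCs and 7.58, 7.74 and 7.32 in non-TPCs. The fractions did not overlap, with differences of -0.51, -0.76 and -0.37 (mean -0.55, SE 0.15, limma adjusted p = 0.55, and 0.346 with the replicate block). Its 2 dimmer probe sets differed by -0.17 and -0.45. Dhx58, or LGP2, differed by 0.08, -0.15 and -0.11.

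All 4 transcription factors other than Irf8 were lower in TPCs of mice 1127 and 920 and higher in mouse 0107. Irf9, the DNA-binding part of the ISRE complex, was at 8.16, 8.23 and 8.37 in TPCs and 8.68, 8.46 and 7.33 in non-TPCs. Irf1, the factor behind much of the type II response, was at 9.66, 10.38 and 10.54 in TPCs and 10.41, 10.71 and 10.06 in non-TPCs. Stat2, the partner of Irf9, differed by -0.30, -0.31 and 0.19, and Irf7, which amplifies the type I response, by -0.21, -0.64 and 0.36. A second Stat2 probe set, dim at a mean of 4.06, had the opposite signs, at 0.28, 0.14 and -0.18. Irf8, a factor of macrophages and dendritic cells, was higher in TPCs of each mouse, by 0.14, 0.10 and 0.26. Pan-leukocyte signal was lower in TPCs, and a second Irf8 probe set differed by -0.68, 0.04 and 0.75. Of the 5 factors, 0 had an unadjusted limma p under 0.05 (4.35% of all genes were lower and 2.12% higher at that p).

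Regulators and other induced genes mostly split by mouse. Ifi35 was at 10.81, 11.04 and 11.33 in TPCs and 11.32, 11.38 and 10.06 in non-TPCs, and its 2 other probe sets had the same signs in each mouse. Rtp4, a Golgi chaperone of receptors, was at 9.64, 9.84 and 9.22 in TPCs and 10.15, 10.48 and 8.36 in non-TPCs. Xaf1, which opposes the inhibitor of apoptosis XIAP, was at 8.62, 9.10 and 8.94 in TPCs and 9.12, 10.17 and 7.83 in non-TPCs. The non-TPCs of mouse 0107 were the lowest array for all 3. Usp18, which removes ISG15 from proteins and damps the receptor, differed by -0.43, 0.01 and 0.87. The ADP-ribosyltransferase Parp9 differed by -0.22, -0.31 and 0.71, and Parp14 by -1.19, -0.74 and 0.10.

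The 2 members of the Ifi200 family, DNA-binding proteins encoded together on chromosome 1, had different patterns. Ifi204 was at 3.18, 3.25 and 3.30 in TPCs and 7.37, 4.72 and 3.65 in non-TPCs. TPC signals were at the dim end of the array, and the difference, -4.18 in mouse 1127, was -0.35 in mouse 0107. The means, 3.25 and 5.25, did not differ past the threshold (SE of the difference 0.87, limma adjusted p = 0.78). Ifi203 was between 6.04 and 6.55 in all arrays.

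Markers of other cell types were lower in TPCs beside these genes to different degrees. Of 9 pan-leukocyte markers, 6 were lower in TPCs of all 3 mice, and the list's medians were -1.42, -1.26 and -0.78 from mouse 1127 to 920 to 0107. Lower in TPCs of every mouse were 9 of 11 macrophage and monocyte, 4 of 6 neutrophil and 2 of 8 dendritic cell markers. The counts were 1 of 4 for B cell and 0 of 9 for T and NK cell markers, and the share of all genes was 13.8%. Also lower in every mouse were 8 of 8 alveolar and airway, 5 of 8 fibroblast and 4 of 8 endothelial markers. Alveolar and airway markers had medians of -1.49, -1.92 and -0.90, and fibroblast markers of -3.72, -0.98 and -0.50. The part of these cells in the interferon signal was not tested. The medians of the 6 leukocyte lists were below 0 in mouse 0107, where that of the interferon genes was 0.36. In mouse 1127 those of the dendritic, T and NK and B cell lists were 0.20, 0.15 and 0.11. Without Irf8 and Bst2, which also mark dendritic cells, the medians of the interferon genes were -0.52, -0.64 and 0.36.

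Between mice, the level of 0 of 39 genes differed past the threshold in a limma F test of the mouse beside the fraction (0.044% of all genes passed). At an unadjusted p under 0.05, 11 did (13.2% of all genes). The 2 arrays of a mouse share the animal, so this test speaks of these 3 animals only. Ifitm1 had the smallest adjusted p, 0.0929, with mouse means of 10.29, 8.10 and 7.63 in mice 1127, 920 and 0107. That p was 0.0183 without mouse 0107, where Ifitm1 alone among the genes passed (0.879% of all genes), and it ranged from 0.0521 to 0.199 over the other settings with all arrays. Gbp3 followed, with mouse means of 8.44, 8.10 and 6.82 (adjusted p = 0.233).

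The interferons themselves gave dim signals. All 10 measured ligand genes lay below 6.91, the median level of all genes, and 0 passed. Ifng was between 3.30 and 3.53 in all arrays, and Ifna1 between 5.64 and 6.21. A dim array signal does not show that a transcript is absent.

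Of the 9 receptor and kinase genes 0 passed, and 8 were lower in TPCs of mouse 1127 (40.7% of all genes), 8 in those of mouse 920 (42.1%) and 3 in those of mouse 0107 (53.6%). The medians were -0.52, -0.20 and 0.29. Ifngr1, the ligand-binding chain of the type II receptor, was at 8.15, 8.09 and 8.19 in TPCs and 8.78, 8.30 and 8.57 in non-TPCs (difference -0.40, SE 0.16, adjusted p = 0.74). Ifnar2 of the type I receptor split by mouse, with differences of -0.92, -0.76 and 0.51. It passed with the replicate block without mouse 0107, a fit chosen after the data were seen (adjusted p = 0.0433). Jak1 differed by -0.98, -0.16 and -0.34 and Ifngr2 by -0.86, -0.15 and -0.03.

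Inhibitors had median differences of 0.21, 0.05 and 0.03. Of 10, 6 were higher in TPCs of all 3 mice (19.7% of all genes) and 0 passed. Ptpn6, a phosphatase that acts on JAK kinases, was higher by 0.25, 0.48 and 0.80 (mean difference 0.51, SE 0.22, adjusted p = 0.773). Pias4 differed by 0.26, 0.34 and 0.07 and Irf2, a repressor at ISRE sites, by 0.01, 0.06 and 0.92. Pias1 was lower in each mouse, by 0.25, 0.44 and 0.02.

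Among 16 nucleic acid sensing genes 0 passed. Tlr3, the endosomal receptor for double-stranded RNA, was at 5.55, 5.75 and 6.19 in TPCs and 6.72, 6.97 and 6.52 in non-TPCs, without overlap (difference -0.91, SE 0.21, adjusted p = 0.401). With the replicate block and without mouse 0107, a fit chosen after the data were seen, it passed (adjusted p = 0.0117). Cgas, the DNA sensor, was lowest in the non-TPCs of mouse 0107, at 10.54, 10.67 and 10.56 in TPCs and 10.46, 10.31 and 9.10 in non-TPCs. The kinase Tbk1 differed by -0.44, 0.15 and -0.32, and the adaptor Mavs by 0.28, -0.03 and 0.14.

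Another 40 interferon-induced genes outside the 39 split by mouse too. They were lower in TPCs for 31 genes in mouse 1127 and 30 in mouse 920, and for 12 in mouse 0107, with medians of -0.33, -0.23 and 0.20. The pattern of lower, lower and higher was held by 19 of 40 (47.5%, against 10.1% of all genes), and 0 passed. Trim30a, a ubiquitin ligase family member, was at 6.40, 7.39 and 6.77 in TPCs and 9.84, 9.69 and 8.57 in non-TPCs (difference -2.51, SE 0.40, limma adjusted p = 0.18). It was lower in TPCs of each mouse and passed without the non-TPC array of mouse 0107 (0.0327). With the replicate block and without mouse 0107, a fit chosen after the data were seen, 7 of the 40 passed (2.9% of all genes). These were Cxcl10, Epsti1, Gbp6, Ifi202b, Sp100, Trim12c and Trim30a. Ifi202b differed by -3.32, -1.82 and -0.64, Trim12c by -2.32, -1.66 and 0.13, and Samhd1, which depletes nucleotides, by -0.87, -0.53 and -0.17. The Trim30a, Trim12c and Ifi202b genes have close relatives, so their signals may be shared.

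MHC class I presentation genes, many of them interferon targets, were lower in TPCs for 6 of 9 in mouse 1127, 8 of 9 in mouse 920 and 0 of 9 in mouse 0107, with medians of -0.12, -0.37 and 0.64. The non-TPCs of mouse 0107 were the lowest array for 9 of 9, against 20.9% of all genes. The immunoproteasome gene Psmb9 was at 9.79, 10.06 and 10.25 in TPCs and 9.79, 9.85 and 8.35 in non-TPCs, and 0 of the 9 passed.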

How the data were processed

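Total RNA from 6 sorted samples was measured on 1-colour Affymetrix arrays. The authors deposited RMA signals per probe set, a method named in the submitters' processing notes. The log2 scale of these deposited values was taken from their range of 2.70 to 14.81, with array medians of 6.00 to 6.04, since no source used here states it. Arrays have no read depth, and 3 per fraction limit the precision.

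The value table held 45101 probe sets, 34945 of them with 1 listed gene. The platform annotation belongs to a 3′ expression array, while the labels' protocols name a whole-transcript kit. Symbols were updated through Entrez identifiers to RefSeq (GRCm38.p6) for 18032 genes, and 161 kept their old symbol. Each gene is represented by the brightest of its probe sets, averaged across arrays. Groups and mice came from the sample titles. Fractions were compared by limma (version 3.58.1, R 4.3.3; two-sided, Benjamini-Hochberg over 18193 genes, threshold 0.05), and the procedure was tested on simulated data. Both fractions of a mouse come from 1 animal, so the numbers pair the samples; their deviations correlated at 0.30, 0.46 and 0.36. A blocked fit, with mouse as a fixed term, stands beside the main one.

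Members and lists were chosen with earlier results of these data known. Values in every array are given for the 12 brightest genes, for the 8 others with the widest range between mice, and for those with 1 direction in all mice and a mean difference of at least 0.5. Up to 4 genes of smallest p are named per pathway list. Genes named for passing in 1 setting, and those with smaller differences, were named after their values were seen. Alternatives covered blocks, left-out mice and arrays, probe set choice, dim genes, scaling and an intensity trend.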

Additional observations from a re-analysis of the deposited data

How the results depend on the processing

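The count of interferon response genes past the threshold, 0 of 39, was 0 with the replicate block, with mean probe sets, with genes above the median level and after renewed quantile normalisation. It was 1 (Gbp2) with the mouse as a random block, 1 with centred arrays and 1 with an intensity trend. Leaving out mice or arrays gave 0 to 11, the highest with the replicate block without mouse 0107, a fit with 1 mouse fewer that was chosen after seeing the data. The replicate block changed no call among these genes or the pathway lists. Leaving out mice moved the count of genes that differ between mice from 0 to between 0 and 1. For pathway lists such fits gave 0 to 1 receptors, 0 to 1 sensing genes and 0 to 7 other induced genes. The medians within each mouse kept their sign with centred arrays, renewed quantile normalisation, mean probe sets, without Irf8 and Bst2 and over the 27 genes above the median level. They ranged from -0.57 to -0.38 in mouse 1127, from -0.74 to -0.44 in mouse 920 and from 0.36 to 0.70 in mouse 0107, where 0.70 came from the 27 brighter genes and the others gave at most 0.39.

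For 11 of the 27 genes given in every array the sign of the mean difference turned with the mice or arrays left out. The ranges were -0.43 to 0.46 for Ifi35, -0.02 to 0.74 for Ifih1, -0.24 to 0.22 for Ifit2, -0.48 to 0.81 for Ifitm2, -0.74 to 0.08 for Igtp and -0.54 to 0.08 for Irf1. They were -0.38 to 0.40 for Irf9, -0.42 to 0.44 for Irgm1, -0.78 to 0.29 for Oas1a, -0.74 to 0.31 for Rtp4 and -0.78 to 0.41 for Xaf1. None of these genes passed in any setting. Of the 39 genes, 12 lie below the median level, where array signal is least precise.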
